A study of Sus scrofa with 12 samples.

Results

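The list of immediate early response genes, 10 in all, was looked up in muscle RNA of 12 pigs, and 6 of the 10 were measured: FOS, EGR1, CCN1, MYC, ATF3 and JUNB. Members were named as a list, and each was matched by its symbol to an Ensembl pig gene ID in the count tables, which held 20741 features, 20300 of them Ensembl genes. The measured genes carry the IDs ENSSSCG00000002383 (FOS), ENSSSCG00000014336 (EGR1), ENSSSCG00000006940 (CCN1), ENSSSCG00000005965 (MYC), ENSSSCG00000015595 (ATF3) and ENSSSCG00000013735 (JUNB). The IDs paired with JUN, FOSB, NR4A1 and BTG2 were not among the counted features, so these 4 genes were not analysed here. All 6 measured members passed the filter on low counts, and they are among 10627 features that did.

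Muscle of 6 pigs labelled high drip and 6 labelled low drip was sequenced, with 3 females and 3 males at each level, aged 167 to 189 days. Drip is the fluid that meat loses after slaughter, so a high drip animal has meat with a low water holding capacity. The labels name no breed, treatment or specific muscle. Each library carries its own animal number, and p-values measure the spread between these animals. Values are raw read counts per gene, with 8009627 to 12622043 counts per library, given here as counts scaled to a common library size (CPM) after TMM, a correction for library composition. Summed CPM of 3 fast fibre markers lay between 26972 and 35748 in all 12 libraries and that of 3 slow fibre markers between 6890 and 9988 (skeletal muscle markers).

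The tables of 3 animals, each female, are recorded under another animal than the number they carry. High drip replicate 2, low drip replicate 1 and low drip replicate 2 are affected. Tables were assigned here by the number in their name. Each animal also has a table of 770 features in selected chromosomal regions, and 737 to 745 of its counts were identical to those of the table with the same number, against 123 to 136 for the recorded tables of these 3 animals. Drip differences of the members are therefore given for 12 animals by number, for the 9 animals without a conflict and for 12 animals by the recorded tables. Sex, interaction and pathway results are given by number, with the other assignments for selected values. The spread and the co-variation over all 12 libraries do not use the assignment, and values within a drip level or sex, or after removal of their means, do.

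Immediate early genes are switched on within minutes of a stimulus, from factors already present in the cell, and their mRNAs decay quickly. Serum response factor with its ETS partners and CREB, activated by MAP kinases and calcium, drive many of them. In muscle they respond to contraction, injury, stretch and stress. FOS and JUNB encode subunits of the AP-1 transcription factor, EGR1 a zinc finger factor, MYC a factor of growth and ATF3 a factor of the stress response. CCN1 (formerly CYR61) encodes a secreted matrix protein and is a target of serum response factor and YAP.

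FOS varied most among the members. In high drip animals it was at 30.8 CPM in the lowest (replicate 2), 108 CPM at the median and 330 CPM in the highest (replicate 3). In low drip animals it was at 47.7 CPM in the lowest (replicate 4), 375 CPM at the median and 812 CPM in the highest (replicate 3). The highest value over all animals was 26.3 times the lowest, and the groups overlapped. Every high drip animal lay below the low drip median, as also for EGR1, CCN1 and MYC, against 4 of 6 for ATF3 and 3 of 6 for JUNB. The share of all features with this pattern was not computed.

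EGR1 followed FOS at a lower level. It ranged from 10.197 to 58.5 CPM in high drip animals (median 23.8) and from 9.95 to 154 CPM in low drip animals (median 62.7). The 4 highest animals comprised low drip replicates 1, 3 and 5 and high drip replicate 4, which also held 4 of the 5 highest FOS values. High drip replicate 3 was the exception, with FOS at 330 CPM and EGR1 at 24.2 CPM.

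CCN1 lay between 17.6 and 51.1 CPM in high drip animals (median 24.6) and between 29.2 and 94.3 CPM in low drip animals (median 87.0). Low drip animals fell into a high set, replicates 1, 2, 3 and 5 at 85.2 to 94.3 CPM, and a low set, replicates 4 and 6 at 29.2 and 31.3 CPM. Both low values sit within the high drip range.

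MYC had the narrowest range. It was at 9.37 to 24.3 CPM in high drip animals (median 15.6) and 12.2 to 44.6 CPM in low drip animals (median 25.4). Low drip replicates 1, 2 and 5, high also for CCN1, were the 3 highest at 32.6 to 44.6 CPM, whereas low drip replicate 3, with the highest FOS, had MYC at 16.2 CPM.

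ATF3 was distributed in another way. It ranged from 220 to 1126 CPM in high drip animals (median 307) and from 67.5 to 906 CPM in low drip animals (median 472). Low drip replicate 4 was far below every other animal, the next being high drip replicate 1 at 220 CPM. The 3 highest were males, high drip replicate 4 at 1126 CPM and low drip replicates 5 and 6 at 884.5 and 906 CPM. Low drip replicate 6 had EGR1 at 9.95 CPM, the lowest of all animals.

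JUNB ranged from 2.27 to 33.0 CPM in high drip animals (median 10.4) and from 4.39 to 16.1 CPM in low drip animals (median 10.957). The lowest value belonged to high drip replicate 3, the animal with the highest FOS of its group. High drip replicates 4 and 1 were the highest, at 33.0 and 26.3 CPM.

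**Figure D1:**
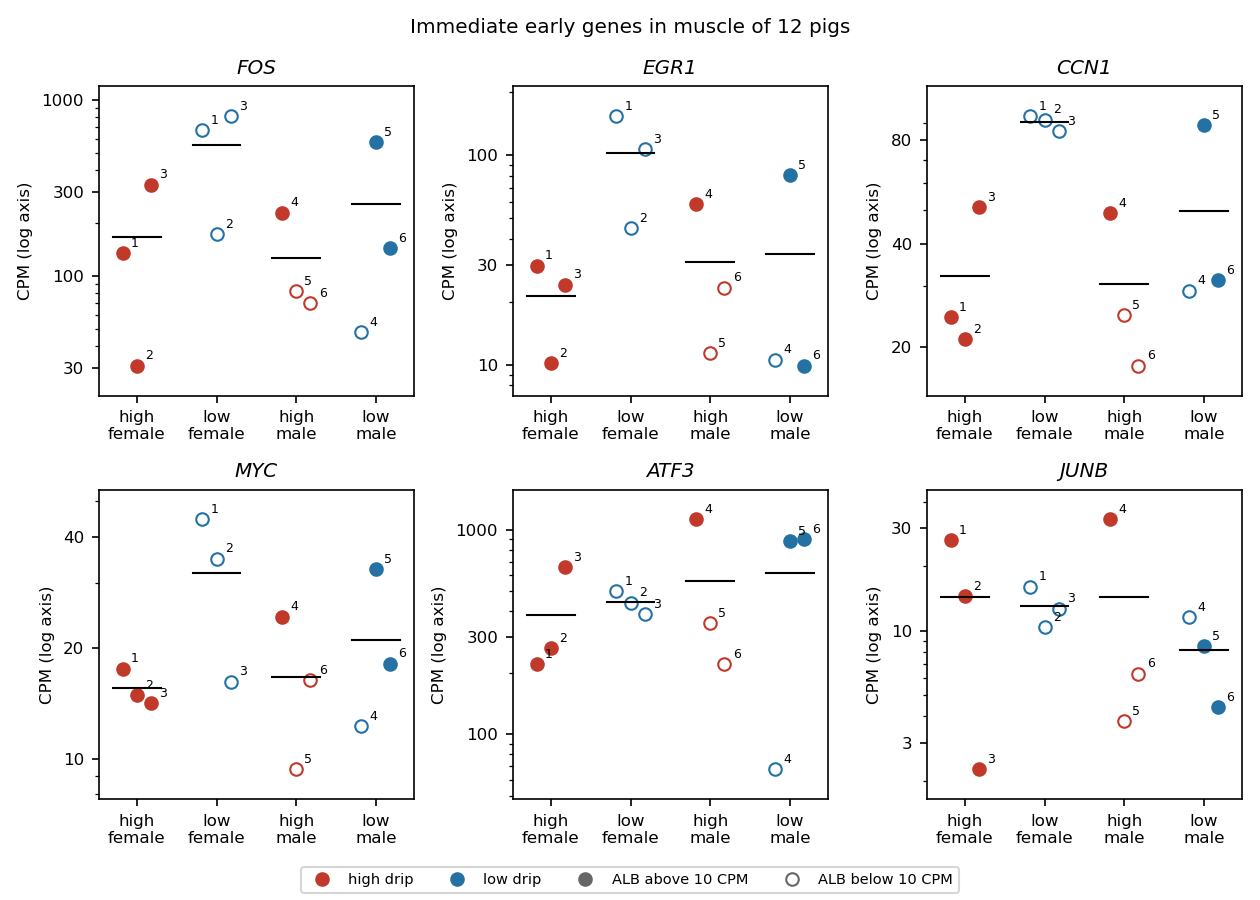
CPM on a log axis of the 6 measured genes in each animal, grouped by drip and sex, with tables assigned by number. Digits are replicate numbers, bars are group means, and filled points are libraries with albumin mRNA (ALB) above 10 CPM. In females CCN1 and EGR1 do not overlap between the drip groups, and the other 4 genes overlap.

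The spread of each gene over the 12 libraries was compared with that of all 10627 tested features, as the SD of log2 CPM. It was 1.52 for FOS, 1.39 for EGR1, 1.13 for ATF3, 1.11 for JUNB, 0.91 for CCN1 and 0.66 for MYC. The median of the members was 1.12 and that of all tested features 0.30. FOS ranked at position 47 and EGR1 at position 60 from the most variable. Of the 6 members, 5 were in the upper part of the distribution set at SD 0.725, which holds 5.01% of all features, and MYC lay just outside, with 6.76% of features above it. The lowest count of a member in any library was 21 for JUNB and 79 to 662 for the others. The biological coefficient of variation, edgeR's estimate of the spread beyond counting error, was 0.353 (MYC) to 0.701 (FOS), against a median of 0.197 over all tested features. With the drip and sex means removed, 4 of the 6 were in the top share.

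**Figure D2:**
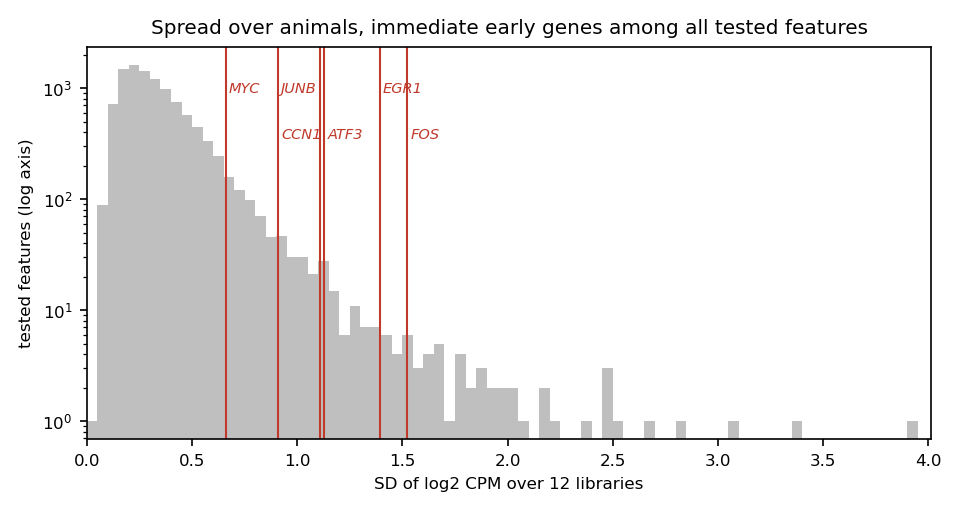
Histogram of the SD of log2 CPM over 12 libraries for the 10627 tested features (vertical log axis), with the 6 genes as red lines. FOS and EGR1 lie in the far tail at 1.52 and 1.39, and MYC lies nearest to the bulk at 0.66.

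Co-variation was tight among FOS, EGR1 and CCN1 and looser for the others. Pearson's r of log2 CPM over 12 libraries was 0.867 for FOS with EGR1 (rho = 0.832), 0.856 for FOS with CCN1 (rho = 0.839) and 0.816 for CCN1 with EGR1 (rho = 0.713). Permutation p-values (each 2-sided) for r were 0.00046, 0.00086 and 0.00221, and 0.00645, 0.00645 and 0.0110 after Benjamini-Hochberg adjustment over the 15 pairs. The permutation p-values of rho were 0.0012, 0.00099 and 0.0112 (adjusted 0.009, 0.009 and 0.0562). Without the 2 libraries farthest from the median of the gene named first in each pair, r was 0.822, 0.823 and 0.788. Leaving out each animal in turn gave r of at least 0.839, 0.828 and 0.778.

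MYC passed with EGR1 and CCN1 and not with FOS. Its r was 0.748 with EGR1 (rho = 0.587, permutation p = 0.00564 for r and 0.0476 for rho, adjusted 0.0211 and 0.105) and 0.724 with CCN1 (rho = 0.608, permutation p = 0.00906 and 0.0403, adjusted 0.0272 and 0.105). With FOS it was 0.583 (rho = 0.517, permutation p = 0.0485 and 0.0873, adjusted 0.104 and 0.146). Without the 2 farthest libraries these were 0.811 with EGR1, 0.545 with CCN1 and 0.749 with FOS, so the order of CCN1 and FOS changed, and the differences between the coefficients were not tested. In all, 5 of the 15 pairs passed for r and 2 passed for rho. The count for r was 3 without high drip replicate 5 or without low drip replicate 1, and 1 in the 9 libraries without a conflict, where r of FOS with CCN1 was 0.916.

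ATF3 had r = 0.599 with FOS (rho = 0.629, permutation p = 0.0376 and 0.0328, adjusted 0.0941 and 0.105), and 0.41 to 0.49 with EGR1, MYC and CCN1. JUNB passed with no other member. Its r was 0.411 with EGR1, 0.397 with MYC, 0.123 with CCN1, 0.0487 with FOS and -0.113 with ATF3, with adjusted permutation p-values of 0.253, 0.253, 0.779, 0.881 and 0.779. Over all 15 pairs the median r was 0.49, against -0.0019 over all pairs of tested features, of which 0.251% reached 0.8, as 3 member pairs did. The points share library composition and depth.

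**Figure D3:**
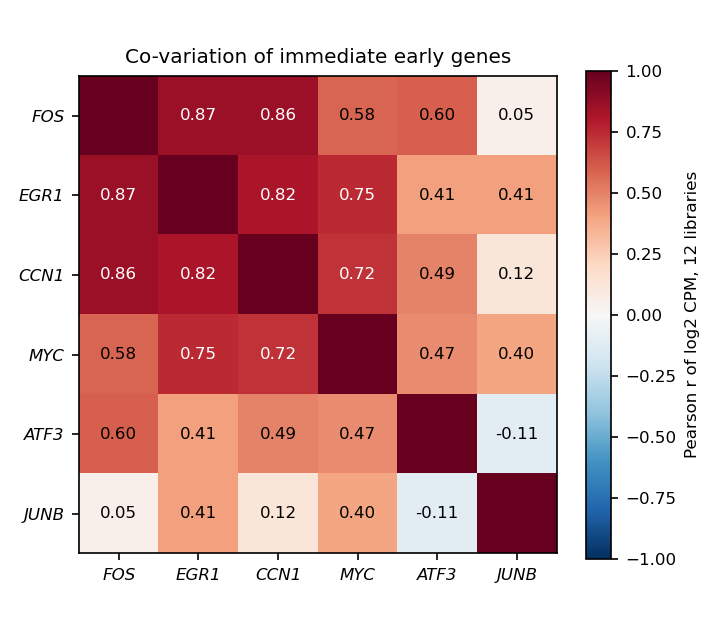
Pearson's r of log2 CPM over 12 libraries for each pair of the 6 genes. FOS, EGR1 and CCN1 form a block from 0.82 to 0.87, MYC joins it at 0.58 to 0.75, and the JUNB row runs from -0.11 to 0.41.

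The pairs were also described within each drip level and sex, with 6 libraries each and no test. For FOS with CCN1, r was 0.860 in high drip, 0.815 in low drip, 0.808 in female and 0.903 in male animals. For FOS with EGR1 it was 0.730, 0.909, 0.893 and 0.813. For CCN1 with EGR1 it was 0.580, 0.937, 0.831 and 0.747. In high and low drip animals, r was 0.325 and 0.542 for FOS with MYC and 0.330 and 0.757 for CCN1 with MYC. For CCN1 with ATF3 it was 0.926 and 0.442. After removal of the drip and sex means, r was 0.817 for FOS with CCN1 and 0.829 for FOS with EGR1. MYC then had 0.424 with FOS, 0.573 with CCN1 and 0.675 with EGR1. ATF3 had 0.694, 0.6998 and 0.469 with the same genes, above MYC for FOS and CCN1 and below it for EGR1. The differences between these coefficients were not tested.

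**Figure D4:**
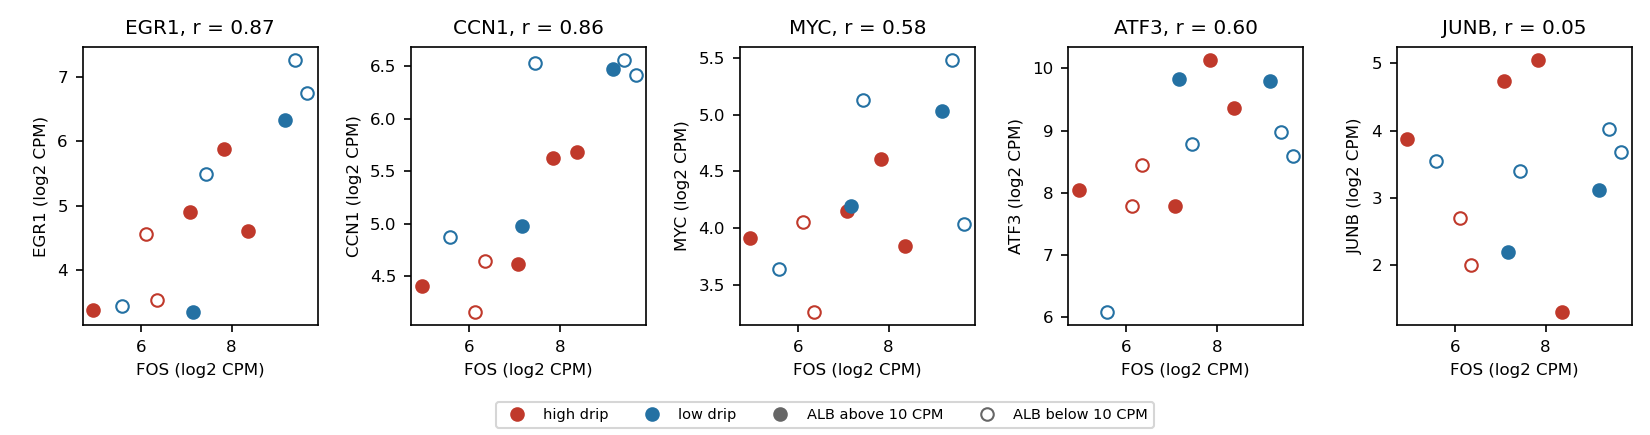
Log2 CPM of the other 5 genes against log2 CPM of FOS, 1 point per library, coloured by drip and filled where ALB is above 10 CPM. EGR1 and CCN1 rise along the FOS axis, and JUNB does not.

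Genes outside the list were ranked by their r with FOS over the 12 libraries, as a description with no test. Among 10626 features, EGR1 held position 6 and CCN1 position 10, ATF3 position 312, MYC position 368 and JUNB position 4518. Among the named genes most like FOS were EGR2 (0.893), NR4A2 (0.883), PDE7A (0.866), KLF4 (0.857), CXCL2 (0.838), DNMT3A (0.837), HIVEP2 (0.826), LIMS2 (0.819) and UBAP2L (0.818). EGR2, NR4A2 and KLF4 encode factors of the immediate early class, and CXCL2 a chemokine that is induced quickly. PDE7A is a phosphodiesterase of cyclic AMP and DNMT3A a DNA methyltransferase. EGR2 went from 0.778 to 6.01 CPM and UBAP2L from 11.2 to 14.96 CPM. With scaling to the library total in place of TMM, r of UBAP2L with FOS was 0.455. The 5 most opposite were NCKAP5L (-0.859), BORCS6 (-0.824), TIMM29 (-0.817), ZDHHC1 (-0.816) and WDFY1 (-0.812).

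The same ranking was made for ATF3 and JUNB, a choice made after their values were seen. Closest to ATF3 were RUBCN (0.935), DNAJB4 (0.933), MAFF (0.920), HYCC1 (0.919) and CSRNP1 (0.910). DNAJB4 is an Hsp40 cochaperone, and MAFF, a small Maf protein, and CSRNP1 are themselves immediate early factors. MAFF ran from 9.18 to 136 CPM and DNAJB4 from 109 to 487 CPM. Closest to JUNB were GUSB (0.911), PLAU (0.887), STAT3 (0.886), IGFBP4 (0.879) and GPSM3 (0.878). STAT3 is a known activator of JUNB, and PLAU is the urokinase type plasminogen activator. Leaving out each animal in turn left r at 0.855 or more for the 5 genes nearest ATF3 and at 0.815 or more for those nearest JUNB.

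The wider pathway was read from 4 lists. Of 19 other immediate early transcription factors, 10 were tested, with a median r with FOS of 0.49, and 4 of them reached 0.7, against 0.8% of all features and a median of -0.019. These were EGR2, NR4A2, KLF4 and CSRNP1. Of 24 immediate early effectors, 13 were tested, with a median r of 0.57, and 3 reached 0.7: CCN2 (0.804), PPP1R15A (0.764) and THBS1 (0.748). CCN2 is the close relative of CCN1, PPP1R15A directs the phosphatase that ends the integrated stress response, and THBS1 is thrombospondin. In these 2 lists, 4 of 10 and 6 of 13 were in the top 5.01% of features by spread.

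Next came components that act before or against the response. Of 30 upstream kinases and factors listed, 22 were tested. Their median r with FOS was 0.10, 0 reached 0.7 and 0 were in the top share by spread. SRF, listed here among the factors, was at 120.5 ± 20.4 CPM (mean ± SD, n = 12), with r = 0.456. MAP2K2, a kinase of the ERK cascade, was at 213 ± 29.4 CPM. MAPKAPK2, a kinase below p38, was at 251 ± 41.1 CPM. Of 23 feedback inhibitors listed, only 6 were tested. Of these, 0 reached 0.7 with FOS and the median r was 0.20. With 0.8% of all features at 0.7 or more, 0 of 22 and 0 of 6 are near that share. SPRY1, an inhibitor of growth factor signalling, had 0.520, and ZFP36L1, which promotes decay of short-lived mRNAs, 0.399. NFKBIA, the inhibitor of NF-kappaB, had 0.017.

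The drip comparison asked which transcripts differ between pigs whose meat loses more or less fluid. By number, mean FOS (± SD, n = 6 each) was 146 ± 113 CPM for high and 405 ± 322 CPM for low drip, a log2 difference, high minus low, of -1.38 ± 0.62 (SE of the fit). CCN1 was at 31.4 ± 14.8 against 70.1 ± 31.0 CPM (-1.10 ± 0.33). EGR1 was at 26.2 ± 17.6 against 67.9 ± 57.1 CPM (-1.19 ± 0.63) and MYC at 16.1 ± 4.89 against 26.4 ± 12.8 CPM (-0.68 ± 0.30). ATF3 was at 474 ± 360 against 531 ± 319 CPM (-0.17 ± 0.51), and JUNB at 14.4 ± 12.8 against 10.6 ± 3.95 CPM (0.48 ± 0.53).

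None of these differences passed edgeR's quasi-likelihood test with Benjamini-Hochberg adjustment, with an adjusted p of 0.999 for each of the 6. Over all features 0 of 10627 passed (0%), also with DESeq2 and with voom, and 380 (3.58%) had an unadjusted p under 0.05. Such a p was found for 3 of the 6 members, all lower in high drip: CCN1, MYC and FOS. Of all features, 1.91% had such a p and were lower. The count of members was 2 of 6 with DESeq2 (CCN1 and MYC), where 363 of 10627 features had such a p. It was 1 of 6 with voom (CCN1), where 371 of 10627 features did. It was 4 of 6, with EGR1 added, both with no filter on low counts and with no covariate. Over all features, 559 of 15836 and 393 of 10627 then had such a p. With log2 ALB as a further term the count of members was 3 of 6, where 438 of 10627 features had such a p. With age as a further term it was 2 of 6, where 454 of 10627 features did. The members co-vary, so these are not separate observations.

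The values also depended on which animal a table was given to. In the 9 animals without a conflict, 0 of the 6 members had an unadjusted p under 0.05, where 2.28% of features did. CCN1 then had -0.85 ± 0.39, FOS -1.27 ± 0.61, EGR1 -0.73 ± 0.66, MYC -0.24 ± 0.32, ATF3 -0.037 ± 0.67 and JUNB 0.64 ± 0.70. By the recorded tables it was again 0 of 6, where 1.99% of features had such a p, with -0.48 ± 0.42 for CCN1, -1.13 ± 0.65 for FOS, -0.79 ± 0.65 for EGR1, -0.25 ± 0.34 for MYC, 0.034 ± 0.51 for ATF3 and 0.34 ± 0.54 for JUNB. The difference was negative for FOS, CCN1, EGR1 and MYC under all 3 assignments.

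**Figure D5:**
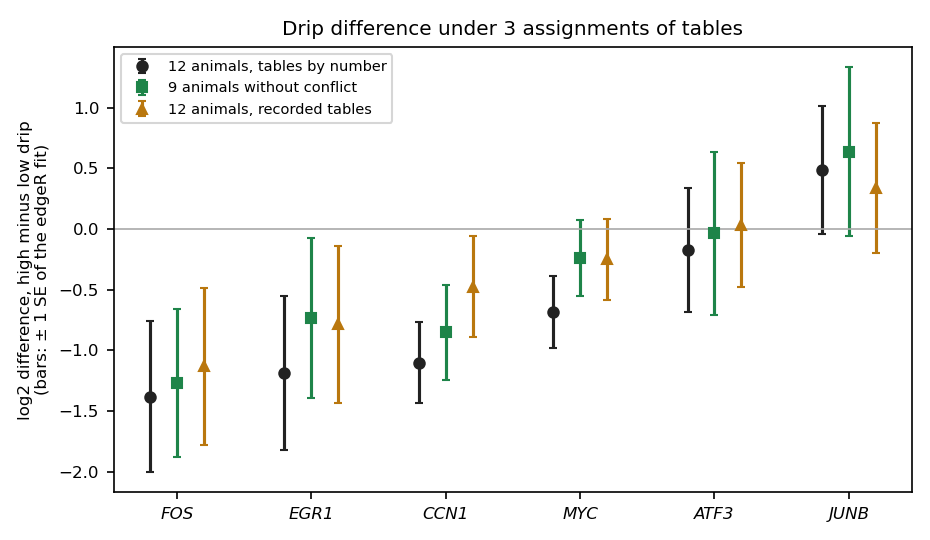
Log2 difference between high and low drip for the 6 genes, with ± 1 SE of the edgeR fit, for 12 animals with tables by number (circles), 9 animals without a conflict (squares) and 12 animals with recorded tables (triangles). From tables by number to recorded tables, FOS goes from -1.38 to -1.13 and CCN1 from -1.10 to -0.48.

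The FOS difference between drip levels depended on single animals. Without low drip replicate 5 it was -0.85 and without high drip replicate 4 it was -1.76. For EGR1 the same animals gave -0.78 and -1.68.

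In females by number, every high drip animal lay below every low drip animal for CCN1 (21.0 to 51.1 against 85.2 to 94.3 CPM) and for EGR1 (10.197 to 29.8 against 45.0 to 154 CPM). Such a separation in this direction was found for 3.75% of all features. ALB was above 10 CPM in all 3 high drip females and in 0 of 3 low drip females, so drip and ALB cannot be told apart there. By the recorded tables the females overlapped, with CCN1 at 24.4 to 91.9 against 21.0 to 94.3 CPM. In males no member was separated, where 5.02% of features were. The difference between the sexes in the drip effect was tested as an interaction (high minus low in males less that in females). It was 2.15 ± 1.09 for EGR1 (edgeR adjusted p = 1.000), 0.79 ± 0.64 for CCN1, 0.73 ± 1.25 for FOS, 0.71 ± 0.58 for MYC, 0.70 ± 1.08 for JUNB and 0.086 ± 1.05 for ATF3. The EGR1 value was 1.87 ± 1.37 in the 9 animals without a conflict, which hold 1 low drip female, and 1.34 ± 1.26 by the recorded tables. Without high drip replicate 4 it was 1.31 and without low drip replicate 5 it was 3.87, and the same animals gave 0.26 and 1.52 for CCN1 and 0.33 and 1.18 for MYC. None passed, and 0 of 10627 features did (0%) with edgeR and voom, while DESeq2 called 7 and edgeR gave 371 (3.49%) with an unadjusted p under 0.05.

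Males were also compared with females, and no member passed. The log2 difference, male minus female, was -0.75 ± 0.62 for FOS, -0.55 ± 0.63 for EGR1, -0.47 ± 0.33 for CCN1, -0.33 ± 0.53 for JUNB, -0.25 ± 0.29 for MYC and 0.53 ± 0.51 for ATF3. The smallest edgeR adjusted p was 0.811, for CCN1. Of all features 0 passed (0%) with edgeR and with voom, 2 passed with DESeq2, and 6.41% had an unadjusted edgeR p under 0.05, as 0 members did. FOS had -1.19 ± 0.62 in the 9 animals without a conflict and -0.87 ± 0.64 by the recorded tables, and CCN1 had -0.49 ± 0.41 and -0.64 ± 0.42.

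In the pathway lists by number the drip difference was negative for most factors and effectors, and none passed. Of 10 other immediate early factors 8 had a negative difference and 2 a positive one (median -0.27), and of 13 effectors 11 and 2 (median -0.33). Over all features 49.6% were negative and the median was 0.0017. With the recorded tables, 6 of 10 factors and 7 of 13 effectors were negative (medians -0.14 and -0.13), and in the 9 animals without a conflict 8 and 10 were (medians -0.15 and -0.18). EGR2 had -1.14 ± 0.45, KLF4 -0.82 ± 0.28, THBS1 -0.89 ± 0.37 and PPP1R15A -0.78 ± 0.36, each with an unadjusted edgeR p under 0.05, as 3.58% of all features had, and an adjusted p of 0.999. By the recorded tables these were -0.70, -0.44, -0.38 and -0.36, and in the 9 animals THBS1 had -0.43. By level, the 3 highest factors were KLF10 (0.46 ± 0.32, and 0.060 without high drip replicate 3), SRF (0.056 ± 0.14) and NR4A3 (-0.91 ± 0.65, and -0.26 by the recorded tables). The 3 highest effectors were RCAN1 (0.22 ± 0.55), PPP1R15A and HBEGF (-0.56 ± 0.38, and -0.014 in the 9 animals).

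Of 22 upstream components, 8 had a negative and 14 a positive difference (median 0.042), with 0.089 ± 0.13 for MAPKAPK2 and 0.15 ± 0.098 for MAP2K2. RPS6KA1, a kinase activated by ERK, had 0.53 ± 0.22 (edgeR adjusted p = 0.999) at 3.51 CPM, and 0.15 by the recorded tables. In the 9 animals 12 of the 22 components had a negative difference, and with the recorded assignment 11 did. Of 6 feedback inhibitors, 4 were negative and 2 positive (median -0.035), with -0.024 ± 0.14 for ZFP36L1, -0.35 ± 0.19 for NFKBIA and -0.36 ± 0.16 for SPRY1. No gene of the 4 lists passed for drip, sex, interaction or albumin.

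Liver mRNA was present in some of the libraries, and the members were set against it. ALB, which encodes serum albumin, lay at 25.6 to 317 CPM in 6 libraries and at 0.327 to 2.49 CPM in the other 6, scaled to the library total. Of 20 liver markers counted, 12 were higher in each of the first 6 than in any of the rest. ALB is one of these 12, and its separation is fixed because it defined the 2 sets. The share of all features separated in this way was not computed. By number, ALB was above 10 CPM in 4 of 6 high drip and 2 of 6 low drip animals, in all 3 high drip females and in 0 of 3 low drip females. Drip and liver mRNA are thus partly confounded in these animals, and wholly so in the females by number.

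Member levels overlapped between libraries with high and low ALB. FOS was at 30.8 to 576 CPM (median 186) in libraries above 10 CPM of ALB and at 47.7 to 812 CPM (median 127) in those below. CCN1 was at 21.0 to 88.8 CPM (median 40.2) and 17.6 to 94.3 CPM (median 57.2), and JUNB at 2.27 to 33.0 CPM (median 11.5) and 3.80 to 16.1 CPM (median 10.957). ATF3 had the widest gap, at 220 to 1126 CPM (median 772) against 67.5 to 502 CPM (median 368).

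With log2 ALB as a continuous term beside sex and drip, no member had a slope that passed. The log2 change per doubling of ALB was 0.14 ± 0.096 for ATF3 (edgeR adjusted p = 0.978), 0.047 ± 0.11 for JUNB, 0.031 ± 0.12 for FOS, 0.017 ± 0.054 for MYC, 0.011 ± 0.064 for CCN1 and -0.055 ± 0.12 for EGR1. Of all features 28 of 10626 passed (0.264%), and 4.55% had an unadjusted p under 0.05, as 0 of the 6 members did. In the 9 animals without a conflict ATF3 had 0.24 ± 0.11 (edgeR adjusted p = 0.626). There its unadjusted p was under 0.05, as it was for 872 of 11157 features. With the recorded assignment ATF3 had 0.12 ± 0.095. With the 2 sets of libraries, ALB above against below 10 CPM, in place of log2 ALB, ATF3 had a log2 difference of 1.12 ± 0.49 (edgeR adjusted p = 0.770). Its unadjusted p was under 0.05, as it was for 672 of 10626 features. ALB levels form 2 clusters, so correlations were taken within each. Over 6 libraries each, r with log2 ALB ran from -0.722 (FOS, ALB above 10 CPM, rho = -0.314, exact permutation p = 0.146) to 0.0609 (JUNB, same libraries, rho = -0.200, exact permutation p = 0.911). None of the 12 relations passed, with a smallest adjusted exact permutation p of 0.844.

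The tight pairs were then taken on both sides of that split. For FOS with CCN1, r was 0.909 in the 6 libraries above 10 CPM of ALB and 0.841 in those below (exact permutation p = 0.00972 and 0.0722, adjusted 0.146 and 0.253 over 30 relations). For FOS with EGR1 it was 0.761 and 0.955 (exact permutation p = 0.0708 and 0.00972, adjusted 0.253 and 0.146). JUNB with FOS had -0.295 and 0.619 (exact permutation p = 0.6 and 0.178), a difference that was not tested.

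On neither side of the split can drip be compared in females, which hold 1 drip level there. With sex in the fit, the drip term above 10 CPM of ALB compares 1 high drip male, replicate 4, with low drip males 5 and 6, and below it compares high drip males 5 and 6 with 1 low drip male, replicate 4. These are values of single animals, whose spread is assumed to be that of the others, and do not show drip within liver status. In the libraries above, the log2 difference was -0.66 ± 1.17 for FOS, -0.29 ± 0.65 for CCN1, 0.36 ± 0.96 for EGR1, -0.069 ± 0.35 for MYC, 0.32 ± 0.56 for ATF3 and 2.35 ± 0.94 for JUNB. In those below it was 0.66 ± 0.67 for FOS, -0.46 ± 0.27 for CCN1, 0.72 ± 0.65 for EGR1, 0.081 ± 0.53 for MYC, 2.08 ± 0.34 for ATF3 (edgeR adjusted p = 0.206) and -1.17 ± 0.38 for JUNB. No member passed in either set, and low drip replicate 4 had the lowest ATF3 of all animals. With log2 ALB as a further term over all 12 animals, FOS had -1.43 and CCN1 -1.12.

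Markers of cell types and of fibre types were summed per library and set against the members. Fewer cells of a type cannot be told apart from less RNA per cell. DES was the highest member of both the satellite cell and myoblast sum and the smooth muscle and pericyte sum. These sums thus overlap and are not specific to those cells. Of 78 relations of the 6 members with age, depth, the share of alignments outside features and 10 marker sums, 0 passed after adjustment (smallest adjusted permutation p = 0.843 for r). The largest were those of JUNB with macrophage markers (r = 0.668, rho = 0.559, permutation p = 0.0182 and 0.0632) and with lymphocyte markers (r = 0.636, rho = 0.720, permutation p = 0.0259 and 0.0111). Without the 2 farthest libraries these were 0.395 and 0.809. In the 6 libraries above 10 CPM of ALB, r was 0.878 for macrophage and 0.860 for lymphocyte markers. In those below, r was 0.197 and 0.177. Macrophage markers, 6 counted of 11, summed to 27.1 to 96.5 CPM in high drip and 36.7 to 90.4 CPM in low drip animals. Lymphocyte markers, 8 of 11, summed to 6.74 to 23.2 and 4.58 to 12.1 CPM. Their part in the JUNB values was not tested. FOS with age had r = 0.345 (rho = 0.301, permutation p = 0.269 and 0.339).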

How the data were processed

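The deposited values are raw counts per feature. Per the submitters' processing notes, the authors used TopHat2 (2.0.3), Bowtie (0.12.7.0), the build Sscrofa10.2 and HTSeq for their counts. Counting parameters, strand setting and annotation release are not given in the sources used here. Of all alignments, 24.2% to 29.3% lay outside features, 0.653% to 0.785% were ambiguous and 12.8% to 15.5% were not unique; these lines were left out of library sizes. Genes that overlap others, or have near-identical copies, lose reads in this way. Symbols were matched by gene ID, and 10349 of 20300 Ensembl genes had one. No sequence or gene length was used, so levels are not compared per length.

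Counts were filtered (filterByExpr on drip and sex), scaled by TMM and tested with edgeR 4.0.16 in R 4.3.3 (quasi-likelihood F-test, two-sided, Benjamini-Hochberg over all tested features, threshold 0.05), with sex and drip as terms. DESeq2 1.42.0 and limma 3.58.1 (voom) were alternatives. The SE of an edgeR estimate was the absolute estimate divided by the square root of its F statistic. Log2 CPM has a prior count of 2. Correlations were tested with 100000 permutations, or exactly over 6 libraries. ALB was scaled to the library total with 1 count added before its log2. The fits were also run on simulated counts with known changes, with another small value added to ALB before its log2. How many of these changes were recovered is not reported here.

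The members and gene lists were chosen with earlier results of these data known. Genes were named by rule: the members, ALB, the 10 named genes most like FOS and the 5 most opposite, and the 3 highest of each pathway list. A few genes that this rule names are not reported here. Other named genes were chosen after their values were seen. Beside the pathway lists and liver, lists of endothelial, macrophage, lymphocyte, smooth muscle and pericyte, fibroblast, satellite cell and myoblast, adipocyte, erythroid, fast fibre and slow fibre markers were summed.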

Additional observations from a re-analysis of the deposited data

How the results depend on the processing

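Replicate numbers were given here in sample order within each group, and equal numbers do not pair animals. The labels hold animal numbers only, so no paired analysis was possible. The drip count of 0 held under every alternative except in the libraries below 10 CPM of ALB, where 3 features passed with an arm of 1 male (low drip replicate 4) once sex is fitted. The sex count of 0 became 1 with no filter and 2 with DESeq2, and the interaction count of 0 became 7 with DESeq2. The ALB slope count of 28 became 91 with no filter and 12 with the 2 sets of libraries. The 5 correlated pairs became 3 to 7 with 1 animal left out and 1 in the 9 libraries without a conflict, an alternative chosen after seeing the data that also has fewer libraries. The count of 5 members with a high spread was 4 to 5 under every alternative. No member passed for drip, sex, interaction or ALB under any of them.

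The drip difference of 5 genes kept its sign under all 23 alternatives, but KLF10 was at 0.060 without high drip replicate 3 and RPS6KA1 at 0.0059 below 10 CPM of ALB (the others were CCN1, NFKBIA and THBS1). Signs changed as follows. Below 10 CPM of ALB the drip term rests on low drip replicate 4 against 2 males, with FOS 0.66, EGR1 0.72, JUNB -1.17, ATF3 2.08, MYC 0.081, EGR2 0.26, HBEGF 0.081, KLF4 0.069, MAP2K2 -0.012, MAPKAPK2 -0.15, NR4A3 1.61, PPP1R15A 0.14, SPRY1 0.049 and SRF -0.014. Above it rests on high drip replicate 4 against 2 males, with EGR1 0.36, ATF3 0.32, HBEGF 0.13, MAPKAPK2 -0.20 and ZFP36L1 0.64. The cause of the other changes was not tested. With voom, JUNB had -0.026. By the recorded tables ATF3 had 0.034, MAPKAPK2 -0.0059 and ZFP36L1 0.094. In the 9 animals MAPKAPK2 had -0.058, SRF -0.053 and ZFP36L1 0.15, and with log2 ALB added ZFP36L1 had 0.043. With 1 animal left out, drip ran from -0.18 to 0.76 for JUNB, -0.010 to 0.14 for MAPKAPK2, -0.14 to 0.98 for RCAN1, -0.030 to 0.18 for SRF and -0.14 to 0.058 for ZFP36L1.

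In the 9 animals the sex difference of MYC was 0.19, and the interaction was -0.33 for ATF3 and -0.31 for MYC. By the recorded tables the interaction was -0.45 for CCN1, -0.33 for ATF3 and -0.15 for MYC. With 1 animal left out it ran from -0.90 to 0.74 for ATF3, -0.0084 to 2.17 for FOS, -0.82 to 1.44 for JUNB, 1.31 to 3.87 for EGR1, 0.26 to 1.52 for CCN1 and 0.33 to 1.18 for MYC. The ALB slope was -0.038 (FOS) and -0.014 (CCN1) with voom, -0.010 (FOS), -0.060 (CCN1) and -0.027 (MYC) by the recorded tables, and -0.12, -0.087 and -0.030 with no covariate. EGR1 had 0.035 in the 9 animals and 0.11 with the 2 sets. With 1 animal left out the slope ran from -0.10 to 0.14 for FOS, -0.058 to 0.073 for CCN1, -0.19 to 0.034 for EGR1, -0.037 to 0.11 for JUNB and -0.017 to 0.045 for MYC. The lowest count of a member was 21, and the number of animals limits the tests.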
